A study of Mus musculus with 4 samples.

Results

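Transcripts of 8 cathepsins (Ctss, Ctsb, Ctsd, Ctsl, Ctsk, Ctsz, Ctsc and Ctsh) and of 2 cystatins (Cst3 and Cstb) were followed through 4 single-cell RNA-seq libraries of a mouse prostate cancer model. These 10 genes were taken by name as a family, and each was found among the 31053 genes of every library. The mice carry the genotype label VFB, given in the study as FVB mice on chow, and bore a subcutaneous graft of MycCaP, a carcinoma cell line derived from HiMyc mice that over-express c-Myc in the prostate. From a control group (PBS) and a group treated with D-CAN, a peptide that homes to adipose stromal cells and is meant to deplete them, 1 library each was made of cancer and stromal/vascular cells of the tumor and of stromal/vascular cells of subcutaneous adipose tissue (SAT). Neither the age of the mice nor whether a library pools several of them is stated, and the tumor is a graft of 1 cell line outside the prostate. In all, 1 library stood for each combination of tissue and treatment, so no test was possible within a tissue.

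Cathepsins are proteases that work mainly in lysosomes, where they break down proteins brought in by endocytosis, phagocytosis and autophagy, and some are secreted and cut extracellular matrix. Most are cysteine proteases, while cathepsin D is an aspartic protease. Cystatins bind and block cysteine cathepsins, cystatin C outside the cell and in the secretory pathway and cystatin B in the cytosol. Macrophages are known for high cathepsin levels, and in tumors both macrophages and fibroblasts have been described as cathepsin sources.

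The libraries held 1525 to 2851 cells with totals of 6667064 to 17996284 unique molecular identifiers (UMIs, each standing for 1 captured RNA molecule), and any pair of libraries shared 0 to 2 cell barcodes. Cells with at least 200 genes were clustered for each tissue with the cathepsins and cystatins taken out of the clustering genes, and clusters were named "X-like" from marker genes. Macrophage-like cells numbered 639 in the control and 423 in the D-CAN tumor library, and 145 and 70 in the SAT libraries. Fibroblast-like cells numbered 84 and 66 in tumor and 294 and 87 in SAT, and cancer-like cells 1339 and 681. All 11 macrophage markers were detected in macrophage-like cells of every library, but their summed level was 30402 and 28122 CPM (UMIs scaled to a common total of the class's UMIs) in tumor against 18204 and 10204 CPM in SAT. In the same order, summed dendritic cell markers were at 67.1, 136.5, 467.7 and 740.5 CPM and class II MHC genes at 7174, 6842, 13959 and 18492 CPM. Neutrophil markers were at 3504, 1109, 689.5 and 199.5 CPM and B cell markers at 78.7, 103.5, 567.8 and 1286 CPM. Dendritic cell, class II MHC and B cell genes were thus higher and neutrophil genes lower in the SAT cluster, and their part in the differences between tissues was not tested.

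Ctss encodes cathepsin S, which trims the invariant chain during class II antigen presentation, and Ctsc encodes cathepsin C, which activates the granule serine proteases of leukocytes. Ctss lies on mm10 chr3:95526786-95556403 and Ctsc on chr7:88278085-88310888, both on the plus strand. In tumor macrophage-like cells Ctss was at 4061 CPM in the control and 3292 CPM in the D-CAN library, and these cells held 95.5% (95% exact binomial interval 94.9 to 96.1) and 96.2% (95.6 to 96.8) of all Ctss UMIs. The next class, perivascular-like cells, was 66.5-fold and 43.7-fold lower. Ctsc followed the same pattern, at 1335 and 1341 CPM, with 90.5% (89.0 to 91.9) and 86.6% (84.9 to 88.2) of its UMIs in macrophage-like cells. No B cell-like, T cell-like, NK-like or dendritic-like class was named in tumor, while B cell-like cells were 23.5% and 33.2% of SAT cells. The shares of the tissues are thus over unlike sets of classes. In SAT the Ctss and Ctsc transcripts were shared with B cell-like cells, which held 29.7% (27.3 to 32.2) and 44.2% (41.6 to 46.8) of Ctss UMIs and 39.9% and 49.2% of Ctsc UMIs. All such intervals cover counting error only.

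Ctsb and Ctsd encode the abundant general lysosomal proteases cathepsin B and cathepsin D. Ctsb (chr14:63122462-63145923, plus strand) reached 4453 and 4687 CPM in tumor macrophage-like cells, with 69.6% and 72.3% of its UMIs there. Outside macrophages its highest tumor level was in endothelial-like cells, at 863 and 907 CPM, and cancer-like cells held 96.3 and 90.0 CPM. Ctsd (chr7:142375911-142388038, minus strand) was at 4606 and 4281 CPM in macrophage-like and at 842 and 830 CPM in cancer-like cells. Because cancer-like cells gave 82.2% of the kept UMIs of the control tumor library, they held 66.6% and 65.3% of all Ctsd UMIs in spite of the lower level. A high level in macrophages and a large pool in cancer cells were therefore both present for Ctsd, whereas Ctsb lay mainly in macrophages.

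Ctsl, Ctsz and Ctsh encode cathepsin L, an endopeptidase, cathepsin Z, a carboxypeptidase, and cathepsin H, an aminopeptidase. Ctsl (chr13:64359337-64370890, minus strand) was at 1460 and 1533 CPM in tumor macrophage-like, 979.5 and 934 CPM in tumor fibroblast-like and 511 and 512 CPM in cancer-like cells. In SAT its highest class was fibroblast-like, at 1278 and 1621 CPM against 438 and 532 CPM in macrophage-like cells. With all cells counted, the order of these classes was thus reversed between the tissues. Without the 5 cells with the most Ctsl UMIs in each class, macrophage-like cells had 724 CPM and fibroblast-like cells 841 CPM in the control tumor. In the D-CAN tumor they had 913 and 805 CPM, so the control tumor alone then had the order of SAT. Ctsz (chr2:174427493-174439039, minus strand) was highest in macrophage-like cells of all 4 libraries, at 1426, 1306, 1114 and 617 CPM, with 274 and 289 CPM in cancer-like cells. Ctsh (chr9:90054152-90076089, plus strand) was at 562, 485, 492 and 355 CPM in macrophage-like cells, and in SAT 43.7% and 47.4% of its UMIs came from B cell-like cells. In the SAT D-CAN library the counting intervals of macrophage-like and dendritic-like cells overlapped for Ctsz and for Ctsh, so their order there was not resolved.

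Ctsk encodes cathepsin K, the collagen-cutting protease best known from osteoclasts. It lies on chr3:95499256-95509362, next to Ctss, with 17.4 kb and no annotated gene between them, and the classes with their highest levels differed. Ctsk was at 440 and 425 CPM in tumor and at 504 and 754 CPM in SAT fibroblast-like cells, against 5.41 to 7.14 CPM in macrophage-like cells of the 4 libraries. In SAT, fibroblast-like cells held 94.6% (91.4 to 96.9) and 95% (92.2 to 97) of Ctsk UMIs. In tumor they held 69.0% (63.1 to 74.5) and 73.4% (68.4 to 77.9), and perivascular-like cells another 24.3% and 22.1%. Across the 26 combinations of class and library with at least 20 cells, log2(CPM + 10) of Ctsk and Ctss had a Pearson r of -0.34, the lowest of all member pairs, while Ctss and Ctsc had the highest, 0.85. These points share libraries and cell classes, and the values are a description.

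Tumor perivascular-like cells stood apart in Ctsk, at 180.5 CPM (95% Poisson interval 139 to 230) and 252 CPM (199 to 315), from SAT perivascular-like cells at 7.71 CPM (1.59 to 22.5) and 29.0 CPM (12.5 to 57.2). The tumor and SAT intervals did not overlap. RNA of fibroblast genes moved with this difference. The summed level of 6 fibroblast genes (Dcn, Col1a1, Col1a2, Col3a1, Lum and Sparc) in perivascular-like cells was 34.8% and 47.1% of that in fibroblast-like cells in tumor, and 5.90% and 7.70% in SAT, beside 41.0%, 59.2%, 1.53% and 3.85% for Ctsk. The 6 genes were not confined to fibroblasts. Tumor endothelial-like cells had them at 5338 and 6489 CPM, and the 9 fibroblast markers at 86.3 and 887 CPM. Those markers were at 11217 and 12550 CPM in tumor and 437 and 885 CPM in SAT perivascular-like cells. The 10 perivascular markers were at 9062 and 9869 CPM in tumor and 8938 and 14898 CPM in SAT perivascular-like cells. The summed fibroblast markers were thus above the perivascular ones in tumor and below them in SAT, so the class was unlike between tissues. In fibroblast-like cells the fibroblast markers were at 37093 and 30891 CPM in tumor and 38147 and 41008 CPM in SAT. The part of fibroblast RNA in the Ctsk level of perivascular-like cells was not tested.

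Cst3 encodes cystatin C and Cstb cystatin B. Cst3 (chr2:148871722-148875692, minus strand) was high in many classes. It was at 4735, 5512, 4388 and 8047 CPM in macrophage-like cells, and in SAT also at 1357 and 2907 CPM in fibroblast-like, 2957 and 3094 CPM in perivascular-like and 2310 and 2519 CPM in endothelial-like cells. Lymphoid cells were lowest, with 93.4 to 379 CPM in T cell-like, B cell-like and NK-like cells of SAT. Cstb (chr10:78425669-78427622, plus strand) was at 454 and 517 CPM in tumor macrophage-like cells and at 198 and 215 CPM in cancer-like cells, which held 79.0% and 76.4% of its tumor UMIs. In SAT dendritic-like cells had the highest Cstb level, 386 and 229.5 CPM, although in both SAT libraries its counting interval overlapped that of the next class.

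**Figure D1:**
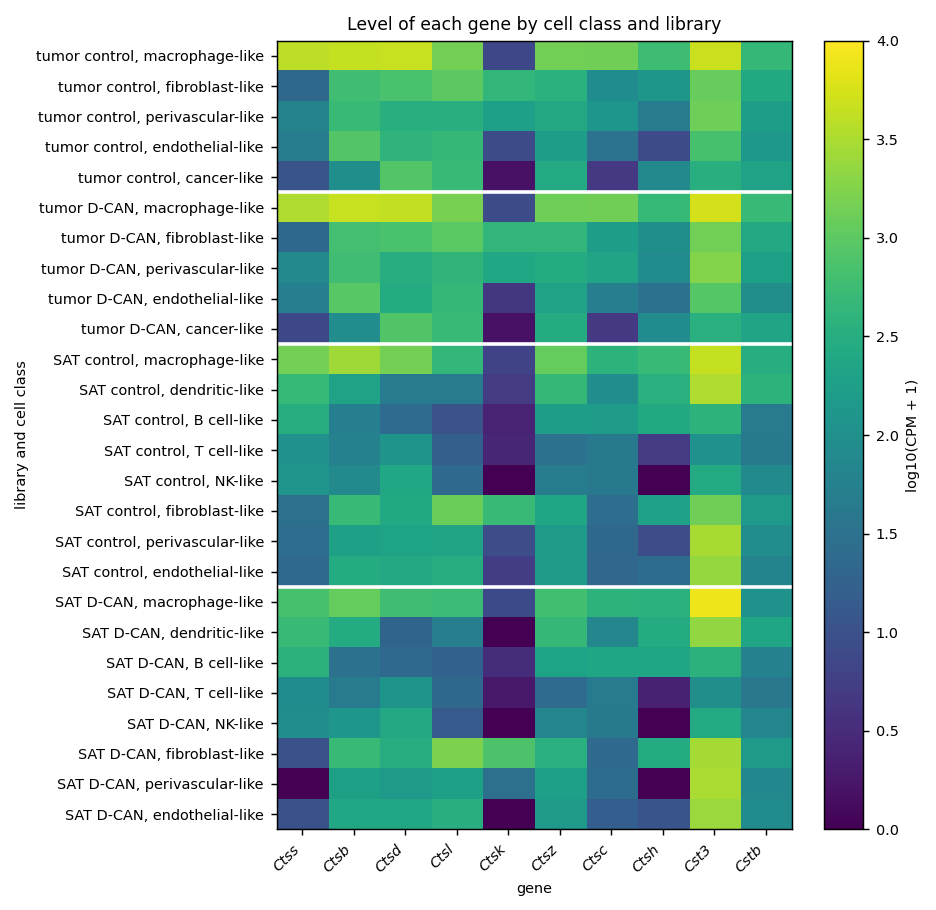
Level of the 10 genes as log10(CPM + 1) in each named cell class with at least 20 cells, grouped by library. Macrophage-like rows are the brightest for 9 genes in tumor, while Ctsk is brightest in fibroblast-like rows (425 to 754 CPM) and, in tumor, in perivascular-like rows (180.5 and 252 CPM).

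With all cells counted, macrophage-like cells had the highest level of 9 of the 10 genes in both tumor libraries. In both SAT libraries they had that of 7. The exceptions were Ctsk in every library and Ctsl and Cstb in SAT. The share of all genes highest in macrophage-like cells was not counted, so whether these counts are unusual was not tested. They also depended on few cells. Without the 5 cells with the most UMIs of a gene in each class, fibroblast-like cells were above macrophage-like cells for Ctsl in the control tumor. The same held for Ctsd in the SAT D-CAN library. The shares of UMIs show where the bulk of each transcript lay, and they follow the number and depth of cells as well as the level. Apart from Ctsk, the sides of the 95% interval of a share averaged at most 2.34 percentage points in the tumor libraries and 4.15 in the SAT libraries.

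**Figure D2:**
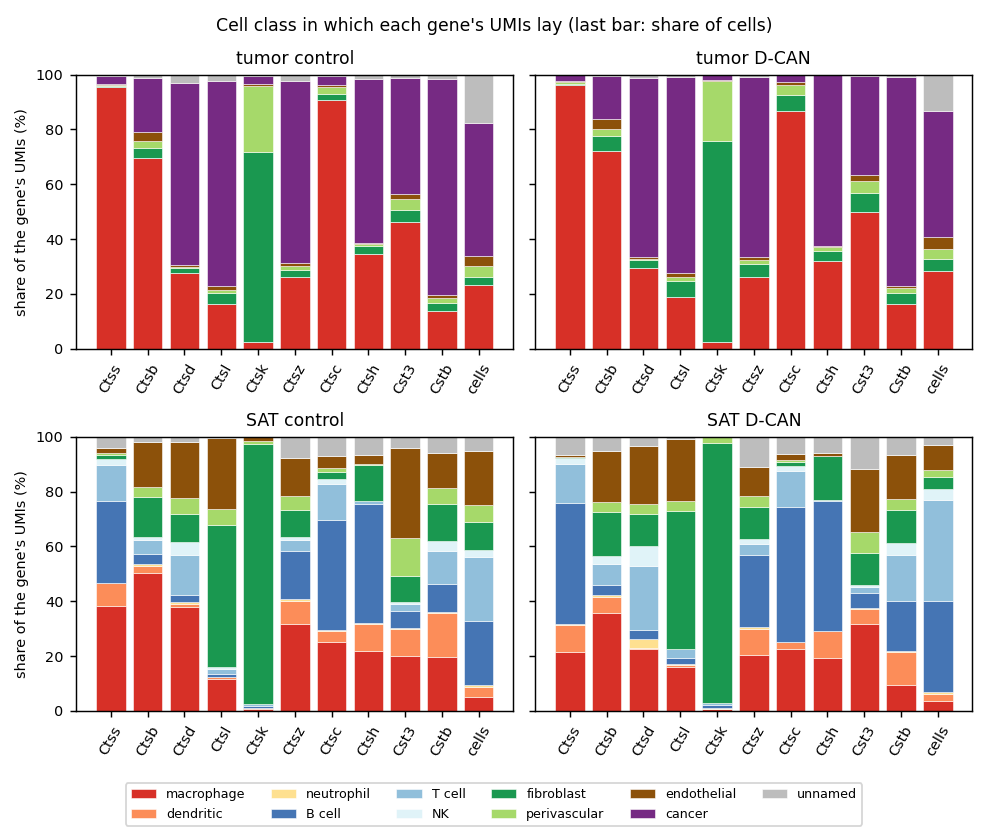
Share of each gene's UMIs (%) by cell class in the 4 libraries, with the share of cells as the last bar. Ctss and Ctsc are almost wholly macrophage-like in tumor (86.6% to 96.2%), while in SAT B cell-like cells add 29.7% to 49.2%. Ctsk is fibroblast-like and, in tumor, partly perivascular-like.

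In cancer-like cells the question was which members rise above the share seen for macrophage genes. A list of 8 macrophage genes (C1qa, C1qb, C1qc, Tyrobp, Fcer1g, Csf1r, Cd74 and Lyz2) was at 0.232% of its macrophage-like level in cancer-like cells of the control tumor and at 0.187% in the D-CAN tumor, with single genes between 0.150% and 0.338%. Ctss lay at 0.249% and 0.195% and Ctsc at 0.275% and 0.269%, within the range of these genes. Their levels in cancer-like cells were 10.1 and 6.43 CPM for Ctss and 3.67 and 3.61 CPM for Ctsc. Whether these are RNA released from macrophages was not tested. In 1 cancer-like cluster Ctss was at 35.9 CPM in the control and 2.19 CPM in the D-CAN library. The other cancer-like clusters of the control had 4.94 to 10.4 CPM. Ctsb stood above the range of the macrophage genes, at 2.16% and 1.92% of the macrophage-like level.

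The remaining members other than Ctsk were far above the range of the macrophage genes in cancer-like cells. Cst3 was at 6.99% and 6.37% of the macrophage-like level, Ctsh at 13.2% and 17%, Ctsd at 18.3% and 19.4% and Ctsz at 19.2% and 22.1%. Ctsl reached 35.0% and 33.4% and Cstb 43.5% and 41.6%. Ctsk had 8 and 7 UMIs in all cancer-like cells of a library, at 0.543 and 0.549 CPM. This was 0.123% and 0.129% of its fibroblast-like level, beside 0.121% and 0.104% for the 6 fibroblast genes. Whether it is RNA released from fibroblasts was not tested. Each cell with at least 1000 UMIs was thinned to 1000 UMIs, and shallower cells were left out. A Ctsd UMI was then seen in 50.7% of control and 47.7% of D-CAN cancer-like cells and a Ctss UMI in 1.05% and 0.589%. At full depth, with all cancer-like cells, these shares were 94.7%, 95.7%, 7.92% and 7.05%. In macrophage-like cells thinned likewise, Ctss was seen in 90.2% and 84.4%, which describes the deeper cells of the class. Median full depths over all cells were 1455 and 2169 UMIs in macrophage-like against 10674 and 18273 UMIs in cancer-like cells.

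Cancer-like clusters also differed among themselves, and the widest span in CPM was that of Ctsd. Over the 5 clusters Ctsd ran from 499 to 1261 CPM in the control and from 493 to 1208 CPM in the D-CAN library, with the same cluster lowest and the same cluster highest in both. The highest cluster was led by Ptgds and Psca. Ctsl ran from 392 to 656 CPM and from 381 to 613 CPM. For the clusters no test was made, since the libraries give 1 value each.

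Tumor and SAT macrophage-like cells were compared to ask whether the family differs between macrophages of the graft and of fat. UMIs were summed per library, and edgeR's quasi-likelihood test was run over all genes with tissue and treatment as terms. With 4 libraries this leaves 1 residual degree of freedom, so the test leans on the spread that edgeR shares across genes. Of the 9 members that passed the filter on low counts, 7 were higher in tumor and none was lower at an adjusted p of 0.05. Over all 7327 genes tested, 7.55% were called higher and 8.28% lower. The median log2 difference of the tested members was 1.42, and that of all genes 0.01.

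Ctsd showed the widest gap, with 4606 and 4281 CPM in the tumor libraries and 1468 and 596 CPM in the SAT libraries. Its log2 difference was 2.28 (SE 0.25, edgeR adjusted p = 3.42e-05). Ctss fell from 4061 and 3292 CPM in tumor to 1457 and 686 CPM in SAT, a log2 difference of 1.91 (SE 0.22, edgeR adjusted p = 3.78e-05). In both genes the lowest tumor library was above the highest SAT library, and within SAT the control was over 2-fold above the D-CAN library.

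In the reported clusters Ctsc and Ctsl were separated by tissue with little spread inside it. Ctsc had 1335 and 1341 CPM in tumor and 378.5 and 387 CPM in SAT (log2 difference 1.85, SE 0.19, edgeR adjusted p = 2.08e-05). Ctsl had 1460 and 1533 CPM in tumor and 438 and 532 CPM in SAT (1.67, SE 0.19, edgeR adjusted p = 4.58e-05). For both, control and D-CAN libraries of 1 tissue lay close together and far from the other tissue. For both genes this closeness in SAT depended on a setting. With clusters made from 20 components, the log2 ratio of Ctsl, D-CAN over control, was -1.145 there, against 0.28 in the reported clusters. With every cell given equal weight, that of Ctsc was 0.69, against 0.03 with UMIs summed.

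Ctsb, Cstb and Ctsz were also higher in tumor, with a wider spread in SAT. Ctsb had 4453 and 4687 CPM against 2701 and 1133 CPM (log2 difference 1.42, SE 0.26, edgeR adjusted p = 0.00188). Cstb had 454 and 517 CPM against 311 and 110 CPM (1.37, SE 0.31, edgeR adjusted p = 0.0073). Ctsz had 1426 and 1306 CPM against 1114 and 617 CPM (0.76, SE 0.21, edgeR adjusted p = 0.0242). For each of these genes the SAT control library was nearer to the tumor libraries than the SAT D-CAN library was.

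Ctsh and Cst3 did not pass the test, and their tissues overlapped. Ctsh was at 562 and 485 CPM in tumor and 492 and 355 CPM in SAT (log2 difference 0.36, SE 0.20, edgeR adjusted p = 0.242). Cst3 was at 4735 and 5512 CPM in tumor and 4388 and 8047 CPM in SAT (-0.18, SE 0.20, edgeR adjusted p = 0.615), with the SAT D-CAN library highest. Ctsk, with 2 to 8 UMIs per library in these cells, did not pass the filter on low counts. Of the 2 inhibitors, Cstb was therefore called and Cst3 was not, and the difference between them was not tested.

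**Figure D3:**
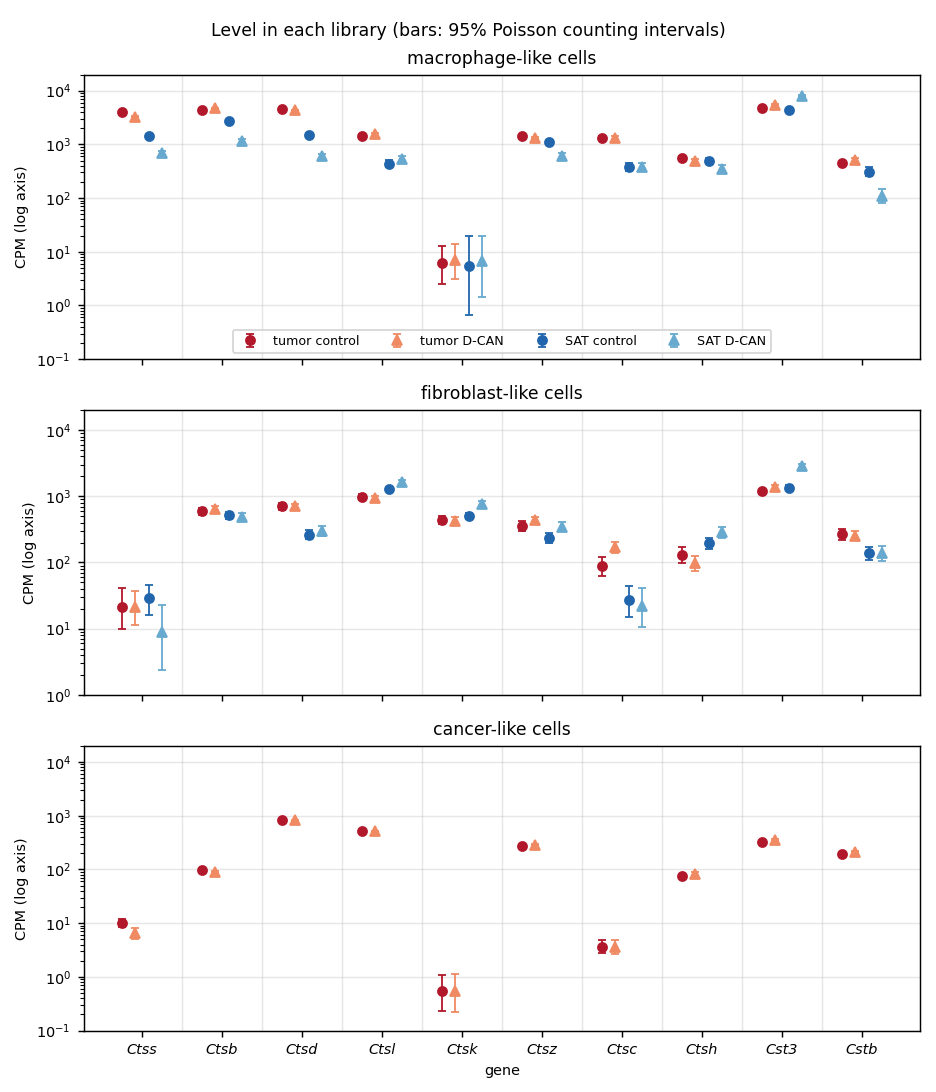
CPM of the 10 genes (log axis) in macrophage-like, fibroblast-like and cancer-like cells, 1 point per library with its 95% Poisson counting interval. In macrophage-like cells both tumor points of Ctss, Ctsb, Ctsd, Ctsl, Ctsz, Ctsc and Cstb lie above both SAT points. In fibroblast-like cells those of Ctsb, Ctsd, Ctsz, Ctsc and Cstb do, of which Ctsb and Ctsz did not pass the test. The share of all genes in this order was not counted.

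With 1 SAT library left out, the lone SAT library gave no spread of its own, so such a fit cannot decide whether members differ. Without the SAT control and without the SAT D-CAN library, the log2 differences were 2.05 and 0.78 for Ctsb. They were 2.46 and 1.36 for Ctss and 2.94 and 1.62 for Ctsd. Few cells also carried much of the SAT signal, since the 5 cells with the most UMIs of a gene held 72.9% of Ctsd and 53.2% of Ctsb UMIs in the SAT control and 73.5% and 44.5% in the SAT D-CAN library. When these 5 cells were left out of every library, both tumor libraries were above both SAT libraries for all 7 called members. Ctsd was then at 4312 and 3764 CPM against 482 and 200 CPM. The share of all genes in this order was not counted. In the tumor libraries the 5 cells held 8.99% and 16.2% of Ctsd UMIs. Leaving out 5 cells thus took unequal parts of the tissues, so the order cannot decide whether the gap rests on few cells. Ctsl was uneven in tumor as well, where 1 cell of the control library held 31.0% of its macrophage-like UMIs, and without 5 cells its tumor levels were 724 and 913 CPM against 299 and 265 CPM in SAT.

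Tumor macrophage-like cells consisted of 4 clusters, and the family was not even over them. The cluster with low C1q and high class II MHC genes, with 155 and 129 cells, had Ctsd at 806 and 303 CPM and Ctsb at 1438 and 919 CPM. In the largest C1q-positive cluster, with 293 and 210 cells, Ctsd was at 6002 and 6070 CPM and Ctsb at 5525 and 6330 CPM. Ctsl showed the same contrast, at 261 and 193 CPM against 2284 and 2256 CPM. Cst3 went the other way, at 5815 and 9761 CPM in the C1q-low cluster against 4561 and 4307 CPM. The smallest cluster, with 40 and 25 cells, had Ctsl at 166 and 375 CPM and Cst3 at 5734 and 3437 CPM. The remaining cluster had Ctsl at 587 and 1664 CPM and Cst3 at 3035 and 3483 CPM. In the control, low Ctsl and high Cst3 were thus not particular to the C1q-low cluster. Over the 4 clusters Ctsh lay between 407.5 and 640.0 CPM in the control and between 321 and 693 CPM in the D-CAN library.

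C1q subunits are complement components made by tissue macrophages, and they moved with the tissue. A UMI of C1qa, C1qb or C1qc was seen in 77.2% (95% exact interval 73.7 to 80.35) and 66.7% (61.95 to 71.15) of tumor macrophage-like cells and in 33.8% (26.15 to 42.1) and 25.7% (16.0 to 37.6) of those of SAT. Among cells with such a UMI, Ctss (log2 difference 1.68, edgeR adjusted p = 0.027) and Ctsl (2.42, edgeR adjusted p = 0.00366) were higher in tumor, and no other member was called, where 1.14% of 5801 genes were called higher. Ctsd was at 5356 and 5583 CPM in tumor against 3133 and 1673 CPM in SAT (1.30, edgeR adjusted p = 0.057), and Ctsb at 4998 and 5673 CPM against 5364 and 2366 CPM (0.62, edgeR adjusted p = 0.46). The SAT control library thus reached the tumor level of Ctsb in these cells, of which SAT had 49 and 18. For Ctsz it stood above both tumor libraries, at 1729 CPM against 1582 and 1534 CPM. For Cstb it did so as well, at 576.5 CPM against 453 and 540 CPM.

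Among macrophage-like cells without a C1q UMI, Ctss, Ctsb, Ctsd, Ctsl, Ctsc and Cstb were higher in tumor, 6 members where 6.22% of 3583 genes were called higher. Ctsd was at 1333 and 946 CPM in tumor and at 204.5 and 110 CPM in SAT (log2 difference 2.90, edgeR adjusted p = 0.000813). Ctsb was at 2076 and 2162 CPM against 680 and 576 CPM (1.77, edgeR adjusted p = 0.00136). In each of the 4 libraries Ctsd and Ctsb were higher in cells with a C1q UMI than in cells without one, and Cst3 was lower. A cell of low depth can lack a C1q UMI by chance, and the cells with one had median depths of 1621, 2418, 1336 and 4530 UMIs against 1218, 1797, 1056 and 4466 UMIs. The part of the mix of macrophage kinds in the tissue difference was not tested beyond these values.

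**Figure D4:**
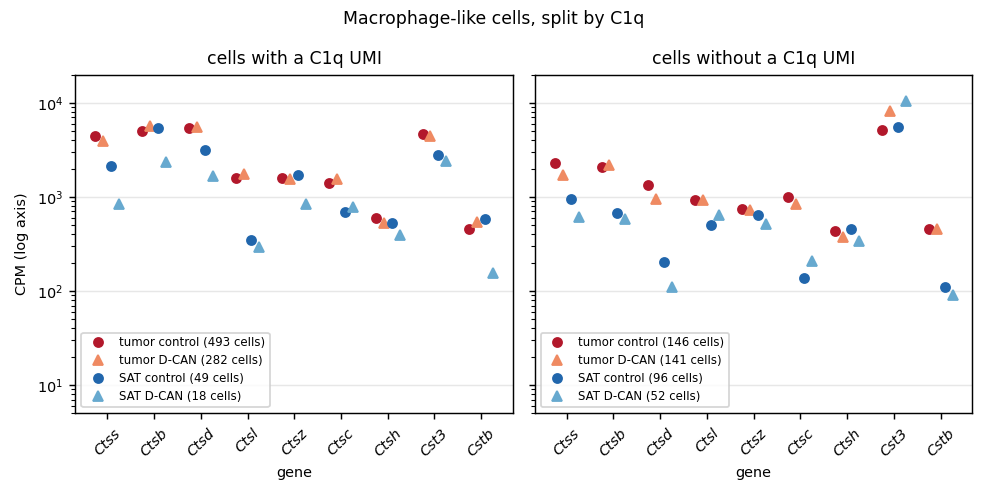
CPM (log axis) of the members other than Ctsk in macrophage-like cells with and without a UMI of C1qa, C1qb or C1qc, 1 point per library, with the number of cells in the legend. Tumor points lie above SAT points for Ctss, Ctsd, Ctsl and Ctsc in both panels, of which Ctsd and Ctsc did not pass the test among cells with C1q. The share of all genes in this order was not counted. For Ctsb, Ctsz, Ctsh and Cstb the SAT control point reaches the tumor points among cells with C1q.

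Since several members moved together, their promoters were searched for 2 short motifs in the RefSeq table of 300 bases around each gene start (GRCm38.p6), which held 7 of the 10 members and lacked Ctsb, Ctsh and Cstb. The first was CACGTG, the core of the element bound by TFEB and related factors at lysosomal genes. The second was GAGGAAGT, read as ACTTCCTC on the other strand, a core of the kind bound by the myeloid factor PU.1. CACGTG was found for Ctsd and Ctsl and in 7.15% of 32851 promoters, and GAGGAAGT for Ctss and Ctsc and in 3.20%. The windows below run 5′ to 3′ along the gene, and capitals mark the match.
Ctsd, chr7:142387907-142387936, minus strand: cgcccgcgtctCACGTGacccgttgagggc
Ctsl, chr13:64370738-64370767, minus strand: gcgttagaagcCACGTGctgatctaaattc
Ctss, chr3:95526773-95526802, plus strand: aatgaaagttcACTTCCTCattgtggatgc
Ctsc, chr7:88277923-88277952, plus strand: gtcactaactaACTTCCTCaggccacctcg
Counted from the RefSeq starts of the table, at 142387827, 64370520, 95526786 and 88278085, the matches begin 98, 236, 2 and 151 bases before the start in this order, and Ctsd had another CACGTG 245 bases before it. The GENCODE spans of Ctsd and Ctsl given above begin further upstream than these RefSeq starts, so both printed windows lie inside those spans. Neither motif was searched in the members that the table lacked. A match of these letters is a description and not a measured binding site.

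Fibroblast-like cells were compared between tissues in the same way. Of 10 members tested, Ctsd, Ctsc and Cstb were higher in tumor and Ctsh was lower, where 10.4% of 6387 genes were called higher, 11.1% lower and 21.4% either. The median log2 difference of the members was 0.18 and that of all genes -0.01. Tumor fibroblast-like cells, in 2 clusters, also carried perivascular markers at 6837 and 6312 CPM, against 345 and 214 CPM in SAT. Schwann cell markers were at 11.9 and 8.31 CPM in tumor and at 464.9 and 1485 CPM in SAT fibroblast-like cells. The class thus differed between the tissues in these genes. Whether its mix of cells or their state differed was not tested.

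Ctsc was at 88.0 and 171 CPM in tumor and 26.8 and 22.1 CPM in SAT fibroblast-like cells (log2 difference 2.23, SE 0.34, edgeR adjusted p = 0.000926), from 37, 103, 15 and 10 UMIs. Macrophage reference genes were at 0.217%, 1.08%, 1.83% and 0.269% of their macrophage-like level in these cells, against 6.59%, 12.8%, 7.09% and 5.69% for Ctsc. Ctsd was at 706 CPM in both tumor libraries and at 265 and 304 CPM in SAT (1.21, SE 0.23, edgeR adjusted p = 0.00417). Cstb was at 266 and 254 CPM against 138 and 139 CPM (0.81, SE 0.23, edgeR adjusted p = 0.0288). For Ctsd and Cstb both libraries of a tissue were close together, and the gap between tissues was wide.

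Ctsh went the other way, at 131 and 98.05 CPM in tumor and 197 and 284.5 CPM in SAT (log2 difference -1.17, SE 0.28, edgeR adjusted p = 0.0124). Ctsl, Ctsk and Cst3 had lower values in tumor without passing the test. Ctsl was at 979.5 and 934 CPM against 1278 and 1621 CPM (-0.69, edgeR adjusted p = 0.0773), and Ctsk at 440 and 425 CPM against 504 and 754 CPM (-0.62, edgeR adjusted p = 0.111). Cst3 was at 1191 and 1389 CPM against 1357 and 2907 CPM, with the tissues overlapping (-0.73, edgeR adjusted p = 0.104). Ctsb (0.20), Ctsz (0.36) and Ctss (0.16) had small log2 differences that did not pass.

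The fibroblast-like calls depended on settings. DESeq2 called 1 of 9 members tested, where 159 of 5180 genes were called higher and 125 lower. Fibroblast-like cells of the SAT control library alone carried erythroid genes, at 2732 CPM against 0 to 24.3 CPM in the others. Without that library the log2 differences of Ctsl, Ctsk and Cst3 were -0.88, -0.93 and -1.29. The lone SAT library then gave no spread of its own, so that fit cannot decide which members differ. The same limit holds for the fits without 1 of the tumor libraries. In the SAT D-CAN library 5 cells held 61.4% of Ctsk UMIs. Without 5 cells in each library Ctsk was at 372 and 363 CPM in tumor and 402 and 331 CPM in SAT. Within SAT the clusters differed as well. Ctsk and Cst3 were highest in 1 cluster, at 879 and 1405 CPM for Ctsk and 2636 and 4899 CPM for Cst3 in the control and D-CAN library, while Ctsl was highest in another at 1916 and 2283 CPM. In tumor the smaller of the 2 clusters, with 22 and 13 cells, had Ctsl at 1958 and 1746 CPM against 721 and 811 CPM in the larger, and Ctsh at 296 and 266 CPM against 87.1 and 72.7 CPM.

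D-CAN and control were compared first for the part of the difference that both tissues share, as the treatment term of the same fits. No member was called by edgeR in macrophage-like cells, where 0.0136% of genes were called higher, 0.0682% lower and 0.0819% either. At an unadjusted p under 0.05 were 5 of 9 members and 3.84% of all genes, Ctss (log2 difference -0.68, edgeR adjusted p = 0.846), Cst3 (0.55), Ctsd (-0.67), Ctsz (-0.47) and Ctsb (-0.57), the last 4 at an edgeR adjusted p of 0.999. In fibroblast-like cells no member and no gene was called (0% of 6387), and Cst3 alone of the 10 members was at an unadjusted p under 0.05 (0.69, edgeR adjusted p = 0.992), where 4.78% of genes were. DESeq2 called no member in either class, with 3 and 1 at an unadjusted p under 0.05.

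Within the tumor no member differed by 2-fold between the libraries in cancer-like cells, where 1.06% of genes were that much lower, 0.928% higher and 1.99% either. None did in macrophage-like cells (2.53% lower, 1.58% higher, 4.11% either) or in fibroblast-like cells (2.74% lower, 2.85% higher, 5.59% either). In cancer-like cells Ctsd was at 842 and 830 CPM (log2 ratio of D-CAN over control -0.02) and Ctsl at 511 and 512 CPM. The largest tumor ratio was that of Ctsc in fibroblast-like cells, 0.96 on the log2 scale (95% counting interval 0.41 to 1.54). Each library being a single value, these intervals compare 2 libraries and not the treatments.

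In SAT macrophage-like cells 4 members were 2-fold or more lower in the D-CAN library, where 5.01% of genes were lower, 5.45% higher and 10.5% either. Ctss went from 1457 to 686 CPM (log2 ratio -1.09, 95% counting interval -1.30 to -0.88), Ctsb from 2701 to 1133 CPM (-1.25, -1.41 to -1.10), Ctsd from 1468 to 596 CPM (-1.30, -1.52 to -1.08) and Cstb from 311 to 110 CPM (-1.5, -2.02 to -1.0). Cst3 was higher, from 4388 to 8047 CPM (0.87, 0.79 to 0.96), and the ratios of Ctsl (0.28) and Ctsc (0.03) had intervals that include 0. The Cst3 rise lay in cells without a C1q UMI, from 5583 to 10592 CPM. In the 49 and 18 cells with a C1q UMI it went from 2813 to 2410 CPM. With every cell given equal weight, Cstb alone was 2-fold apart (-1.64), and the log2 ratios of Ctsb, Ctss and Ctsd were -0.34, -0.65 and -0.88, while those of Ctsc and Ctsl were 0.69 and -0.07. C1q RNA moved along with these genes, at 3534 CPM in the control and 1891 CPM in the D-CAN library, and so did the summed macrophage markers. Neutrophil markers went from 689.5 to 199.5 CPM, while markers of mast cells (21.6 to 605 CPM), B cells (567.8 to 1286 CPM) and dendritic cells (467.7 to 740.5 CPM) were higher in the D-CAN library. The part of these in the ratios was not tested.

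In SAT fibroblast-like cells Cst3 was higher in the D-CAN library, from 1357 to 2907 CPM (1.10, 95% counting interval 0.97 to 1.23), and Ctss lower, with 16 and 4 UMIs, where 6.81% of genes were 2-fold lower, 4.94% higher and 11.7% either. Leukocyte RNA moved with Ctss in this class, with the 8 macrophage reference genes going from 482.7 to 57.4 CPM, class II MHC genes from 701 to 108 CPM and B cell markers from 245 to 13.2 CPM, and its part was not tested. Ctsk (0.58) and Ctsz (0.57) were also higher, by less than 2-fold, and without the 5 cells with the most UMIs in each library Ctsk was at -0.28. Schwann cell markers were higher in the D-CAN library as well, from 464.9 to 1485 CPM, and their part in these ratios was not tested. The 4 SAT fibroblast-like clusters contributed unequally to the libraries, with 178 control and 23 D-CAN cells in the largest, where Cst3 was at 946 and 574 CPM. A cluster of 30 cells was found in the control library and had no D-CAN cell.

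**Figure D5:**
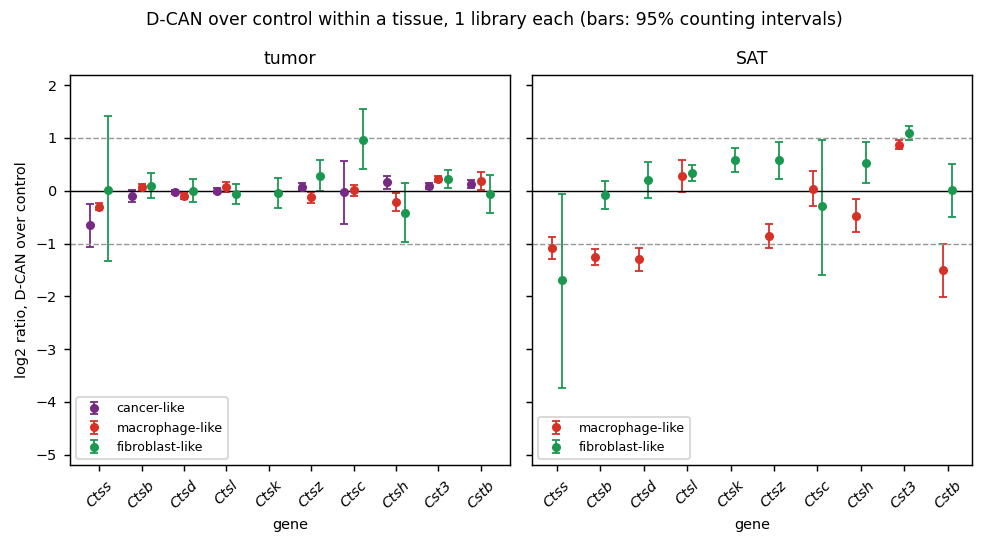
Log2 ratio of CPM, D-CAN over control, within tumor and SAT for members that reached 20 UMIs in the pair of libraries, with 95% counting intervals and dashed lines at 2-fold. Tumor points lie within 2-fold, while in SAT macrophage-like cells Ctss, Ctsb, Ctsd and Cstb lie below the lower line and Cst3 near the upper one.

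Other genes of the pathway were taken from lists. Among 8 further cathepsins and lysosomal proteases, 6 were tested in macrophage-like cells and Lgmn, Ctsa and Tpp1 were higher in tumor. Lgmn, which encodes the asparaginyl protease legumain that processes cathepsin precursors, was at 1425 and 1578 CPM in tumor and 381 and 160.5 CPM in SAT (log2 difference 2.61, SE 0.28, edgeR adjusted p = 2.68e-05). Ctsa, which encodes the carboxypeptidase that protects lysosomal neuraminidase, was at 579 and 519 CPM against 322 and 236 CPM (1.03, edgeR adjusted p = 0.00286). Tpp1, a lysosomal tripeptidyl peptidase gene, was at 142 and 147 CPM against 100 and 71.1 CPM (0.82, edgeR adjusted p = 0.0346). Ctse, Ctso and Ctsw did not pass, and in SAT Ctsw was highest in NK-like cells, at 354 and 241 CPM.

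Of 16 further cystatin genes, Cst7 was the one tested in macrophage-like cells. Cst7, the gene of the leukocyte inhibitor cystatin F, was lower in tumor, at 6.26 and 12.5 CPM against 67.6 and 41.3 CPM (log2 difference -2.45, SE 0.46, edgeR adjusted p = 0.00238). In NK-like and T cell-like cells of both SAT libraries Cst7 was at 46.7 to 67.1 CPM. Cst6 and Ctsf had 114 and 137 UMIs over the 4 libraries, and Ctsf was at 25 to 51.5 CPM in fibroblast-like cells. In fibroblast-like cells Lgmn was higher in tumor (1.70, edgeR adjusted p = 0.000715), and Ctso was lower (-1.07, edgeR adjusted p = 0.038).

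A list of 58 other lysosomal genes had 54 tested in macrophage-like cells, of which 14 were higher and 2 lower in tumor, where 7.55% and 8.28% of all genes were. Their median log2 difference was 0.48. Among the highest were Pla2g15 (1.85, edgeR adjusted p = 0.00179) and Atp6v0d2 (1.44, edgeR adjusted p = 0.0631), which encode a lysosomal phospholipase and a proton pump subunit. Among the lowest were Ppt1 (-0.90, edgeR adjusted p = 0.0107) and Tfeb (-0.87, edgeR adjusted p = 0.166). In fibroblast-like cells 2 of 43 tested were higher and 4 lower, with a median of -0.08, and these counts are below the shares of all genes (10.4% and 11.1%). For the treatment term no gene of these lists was called in either class.

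The genes most alike to each member over the 26 combinations of class and library were taken from 7985 genes by the Pearson r of log2(CPM + 10). Ctsk had the closest companions, Loxl1 (0.98), Serpinf1 (0.98) and Aebp1 (0.97), genes expressed in matrix-producing cells. Nearest to Ctss were Nckap1l (0.93), Ncf4 (0.92) and Phf11b (0.91), to Ctsb Akr1a1 (0.93), Hmox1 (0.91) and Tmem106a (0.91), and to Ctsl March8 (0.93), Grina (0.93) and Atp6v1e1 (0.91). For Ctsd they were Prdx1 (0.90), Tmem14c (0.86) and Fam234a (0.84), and for Ctsz Tctex1d2 (0.91), Ftl1 (0.91) and Fuca1 (0.90). Ctsc had Pld4 (0.86), Capzb (0.84) and Ccl9 (0.83), and Ctsh had Snx8 (0.86), Fuca1 (0.84) and Myo5a (0.83). For Cst3 they were Acp2 (0.90), Cyfip1 (0.88) and Rragc (0.87), and for Cstb Anxa4 (0.90), Ftl1 (0.87) and Tctex1d2 (0.86). The points share libraries and depth, and no p is given.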

How the data were processed

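The authors aligned 10x Chromium 3′ reads with Cell Ranger and STAR to mm10 and deposited unnormalized UMI counts for each gene and cell. Per the file headers, 3 libraries came from version 3.1.0 and the SAT D-CAN library from 3.0.2. The members and lists were chosen with earlier results of these data known. Cells with at least 200 genes were clustered for each tissue in Seurat 5.3.0 (2000 variable genes, 10 components, resolution 0.8). A class needed 3 detected markers, each in 10% of the cells and at 25% of its level in its top cluster. No doublets were sought or removed. UMI counts were summed per class and library and tested with edgeR 4.0.16 (TMM, filterByExpr, Benjamini-Hochberg over all genes). The SE is the log2 difference over the root of the test statistic. Genes were named by a rule, namely all members, other cathepsins and cystatins with at least 100 UMIs, 3 lysosomal genes at each end (of which some are not reported here), and 3 companions per member. Cluster differences, the perivascular-like Ctsk and the dependence on single cells were chosen after the values were seen. Positions are from GENCODE vM21, promoters from RefSeq. CPM rest on UMIs that count molecules, so no length correction was made. The test script was tested on simulated data.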

Additional observations from a re-analysis of the deposited data

Results flagged for a closer look

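In macrophage-like cells the D-CAN over control ratio had opposite directions in tumor and SAT for 2 members, with counting intervals on opposite sides of 0. The share of all genes with such intervals was not counted, so whether 2 members are unusual was not tested. The log2 ratio of Ctsb was 0.0738 in tumor and -1.254 in SAT, and that of Cstb was 0.1872 in tumor and -1.499 in SAT. With every cell given equal weight the tumor ratio of Ctsb was -0.0048, and both directions were then the same. With 1 library per tissue and treatment the difference between the tissues was not tested, and the intervals cover counting error only.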

How the results depend on the processing

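Values without the C1q-low cluster, by C1q, without a library and without 5 cells per library were added after seeing the data. In macrophage-like cells 7 members were called between tissues, 5 with DESeq2 (Ctsb and Ctsz lost), 2 among cells with a C1q UMI, and 0 to 6 when 1 library was left out, where the lone library of a tissue is assumed to vary like the other tissue's. For the treatment term 0 members were called. Without a filter on low counts 2 were (Ctss and Ctsd lower in D-CAN), where 16 of 14821 genes were called higher and 22 lower. In fibroblast-like cells 4 were called between tissues, 1 with DESeq2, and 7 with cells of at least 500 genes or of at most 20% mitochondrial UMIs. With 1 library left out the number changed as well, but such fits cannot decide it, since a tissue then has a lone library. Over all genes, 553 were called higher and 607 lower in tumor macrophage-like cells, 117 and 91 with DESeq2, and 0 without either SAT library. In fibroblast-like cells 662 and 708 were, and 159 and 125 with DESeq2. There, 580 of 5729 genes were called higher and 662 lower with cells of at least 500 genes. With at most 20% mitochondrial UMIs, 768 of 6202 were called higher and 826 lower.

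Within a tissue, 0 members were 2-fold apart in tumor cancer-like cells, 1 at 1.5-fold and 1 without the 5 cells. In tumor fibroblast-like cells 0 were, and 1 at resolution 0.4 or 1.2, with 20 components, at 1.5-fold or without the 5 cells. In SAT macrophage-like cells 4 were, and 1 with cells weighted equally. In SAT fibroblast-like cells 2 were, and 1 with at least 500 genes, at least 100 UMIs or without the 5 cells. The share of all genes 2-fold or 1.5-fold apart was not counted under these alternatives. Of 1071 values of single genes under an alternative, 54 had another sign than the reported value. None of these reported values was of a called or 2-fold difference. The alternative itself was past 2-fold for Ctsl in SAT macrophage-like cells, at -1.145 with 20 components against 0.2801. The reported tissue fits compare libraries within a treatment. Leaving out that pairing (no replicate block) left 6 members called in macrophage-like and 5 in fibroblast-like cells. Over all genes, 550 of 7327 were then called higher and 634 lower in macrophage-like cells. In fibroblast-like cells 650 of 6387 were called higher and 709 lower. With 2 to 8 UMIs per library, Ctsk could not be compared in macrophage-like cells.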
